A study of Mus musculus with 2 samples.

Results

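The genes described are 43 nuclear receptor genes other than the oestrogen-related receptors, of 27356 genes named on a mouse expression array. They were chosen by their gene name in the scanner files and are read by 68 probes. The tissue was tibialis anterior, the fast-twitch muscle at the front of the shin, from adult male C57BL/6 mice. There was 1 sample of the genotype with an activated Notch2 transgene (N2ICD-mTG, called N2ICD here, the intracellular part of Notch2) and 1 control sample, each on 1 array. The promoter of the transgene, the genotype of the control beyond that word and the number of animals behind a sample are not given in the sources used here. By its title the series concerns what myofibre Notch2 does to the mass and fibre types of muscle, and the arrays ask which transcripts differ when Notch2 is active.

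Nuclear receptors are transcription factors that bind DNA directly, and most of them change their activity when a small lipophilic ligand such as a steroid, a retinoid, a thyroid hormone or a fatty acid sits in their ligand pocket. In skeletal muscle they are known for setting fuel use, fibre character, the local clock and the response to glucocorticoids. Retinoid X receptors are the shared dimer partners of the retinoic acid, thyroid hormone, vitamin D, sterol and fatty acid receptors, while Rev-erb receptors repress and ROR receptors activate the same clock genes.

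With 1 array per genotype there was no replicate check and no test, and genotype, animal, dissection and array cannot be told apart. A level is the probe's processed signal as a multiple of its array's 75th percentile, 190 in N2ICD and 169 in control. A difference is log2 N2ICD minus log2 control. Among 59305 spots other than controls, 24982 in N2ICD and 24916 in control were well above background and 0 were saturated. Repeated spots of one probe gave differences with an SD of 0.14. When probes were divided by level into 4 groups, the SD was 0.24 for the dimmest group and 0.05 for the brightest. These SDs hold the noise of the spots and no spread between animals. Levels of different probes are not compared with each other, since probes bind with different strength. The muscle fibre markers listed were well above background on both arrays, 10 of 10. On a scale set by spike-in controls every difference lies 0.48 higher, so a negative difference smaller than that changes sign on it.

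Rora, the activating ROR receptor of the clock and of lipid metabolism, was the receptor whose probes differed most from each other, and its probe sequences are shown for that reason, 5′ to 3′ and in lower case throughout. The upper one is the probe at position 1582 of transcript NM_013646 (mm9, chr9:69226774-69226833, plus strand). The lower one is the probe at position 355 of transcript ENSMUST00000143507 (mm9, chr9:68511835-68511894, plus strand). They lie 714939 bases apart. The third line is an Esr1 probe at position 1225 of NM_007956 (mm9, chr10:5489352-5489411, minus strand), shown because it was read above background in control muscle and not in N2ICD muscle. The files do not mark coding sequence. On the strand shown, position 355 of Rora holds a stop triplet in every reading frame, so it does not lie wholly within coding sequence.
Rora position 1582: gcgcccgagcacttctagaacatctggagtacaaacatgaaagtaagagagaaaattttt
Rora position 355: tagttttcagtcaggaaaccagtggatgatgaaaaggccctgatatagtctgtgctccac
Esr1 position 1225: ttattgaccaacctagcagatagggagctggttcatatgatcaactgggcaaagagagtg

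Of the 43 receptors, 28 (65.1%) were measured on both arrays by 1 or more probes well above background, against 49.8% of all named genes. Nr5a2 passed this call in control muscle and not in N2ICD muscle. Another 14 were not well above background on either array. They were Rorb, Nr4a3, the vitamin D receptor Vdr, the bile acid receptor Nr1h4, the xenobiotic receptor Nr1i2, the mineralocorticoid receptor Nr3c2, the progesterone receptor Pgr, the tailless receptor Nr2e1, the photoreceptor cell factor Nr2e3, the hepatocyte factors Hnf4a and Hnf4g, the germ cell factor Nr6a1, and Nr0b1 and Nr0b2, which lack a DNA-binding domain. No value is given for them.

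Of the 28 measured receptors, 0 were 2-fold or more higher in N2ICD, against 1.42% of the 13634 genes measured on both arrays. Likewise 0 were 2-fold or more lower, against 0.895% of those genes. Rora enters the counts of this paragraph as the mean of probes that lay past 2-fold in opposite directions. With the brightest probe of each gene, 1 receptor was 2-fold higher, Rora. At 1.5-fold, 0 receptors were higher and 2 were lower, Rxrg and Esr1, against 5.05% and 4.83% of all measured genes. These counts were 9 higher and 0 lower on the spike-in scale, and after normexp background correction they were 0 higher and 1 lower, without Esr1. The other 26 lay within 1.5-fold, and 15 of the 28 lay within 0.25 of 0 on the log2 scale. Differences were above 0 for 11 receptors and below 0 for 17, which is 39.3% above 0 against 50.7% of all genes. Their median was -0.06, with quartiles of -0.26 and 0.13, against a median of 0.01 and quartiles of -0.19 and 0.19 for all genes. On the spike-in scale the receptors' median was 0.42 and that of all genes 0.48.

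**Figure D1:**
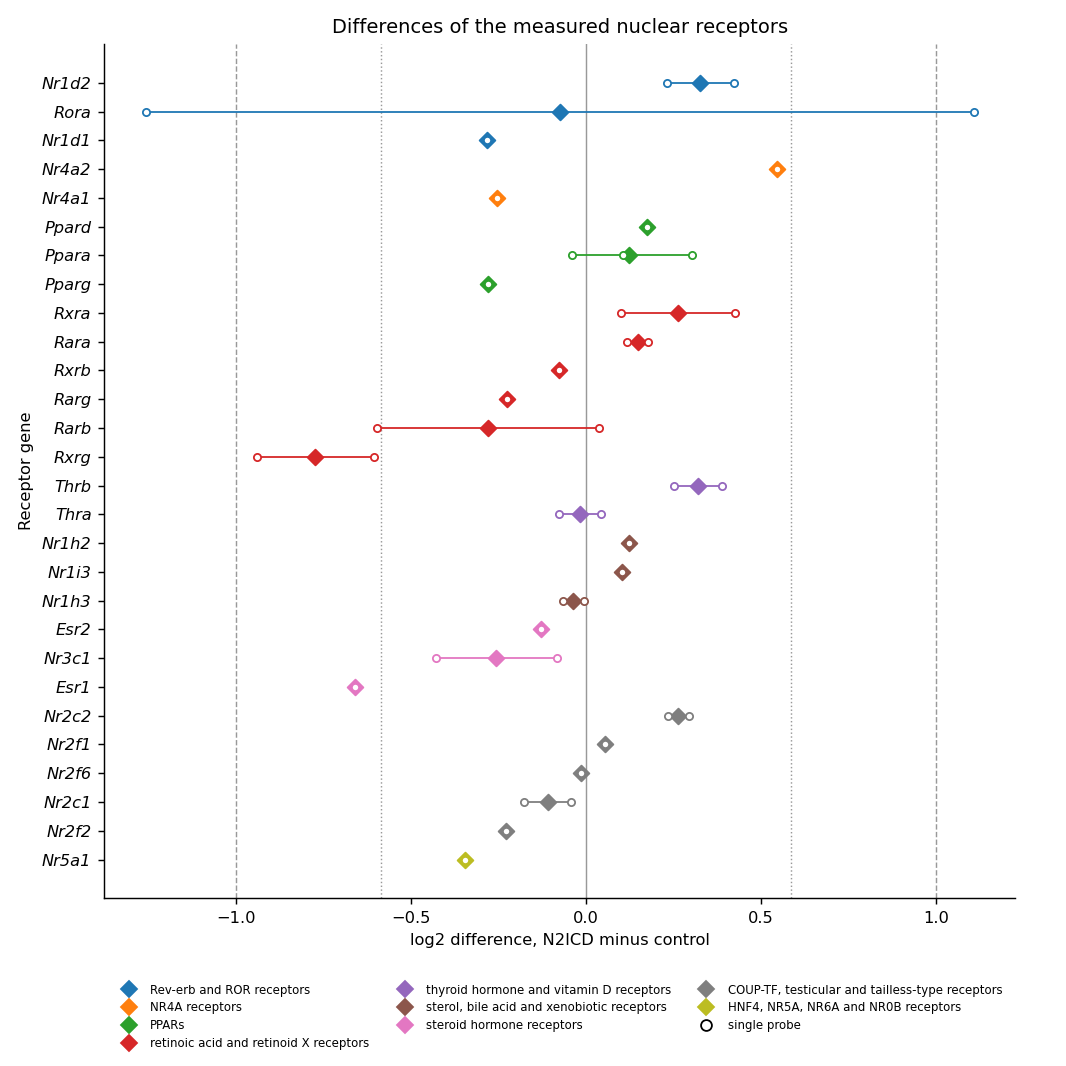
Log2 difference, N2ICD minus control, of the 28 receptors measured on both arrays (diamonds, coloured by receptor class) and of their single probes (open circles, joined by a line); dashed lines mark 2-fold and dotted lines 1.5-fold. Gene values run from -0.77 for Rxrg to 0.55 for Nr4a2, and the probes of Rora lie at -1.26 and 1.11.

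**Figure D2:**
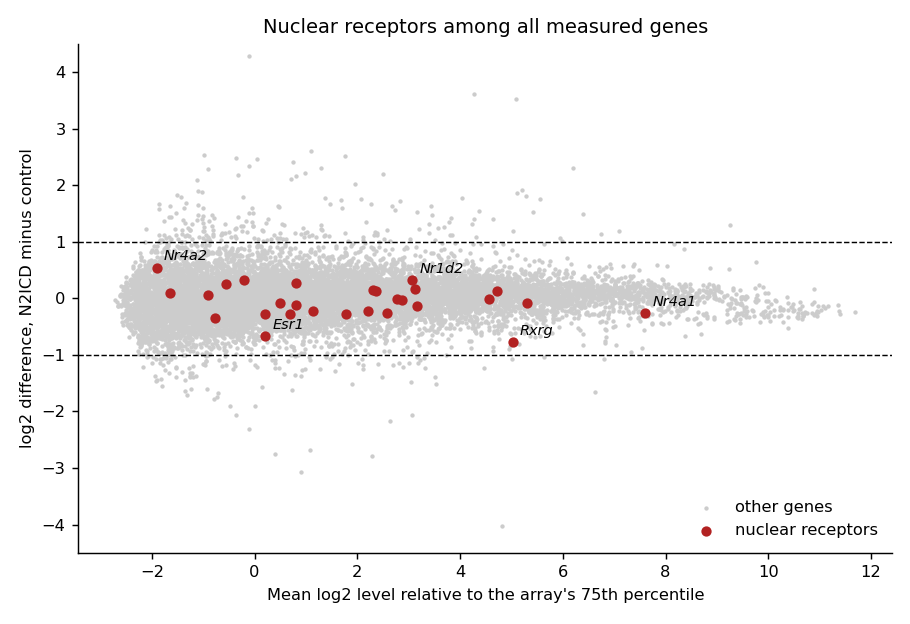
Log2 difference, N2ICD minus control, against the mean log2 level of the 13634 genes measured on both arrays (grey) and of the 28 measured receptors (red); dashed lines mark 2-fold. No receptor lies beyond the dashed lines by its gene mean, and Rxrg at -0.77 is the lowest of them. The single probes of Rora, not drawn here, lie beyond them in opposite directions.

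Among the clock receptors, the Rora probe at position 1582 read 9.15 in N2ICD muscle and 4.24 in control muscle, 2.16-fold higher and a difference of 1.11. The probe at position 355 read 0.205 in N2ICD muscle and 0.490 in control muscle, 2.39-fold lower and a difference of -1.26. The probes therefore pointed opposite ways, and the gene mean of -0.07 describes neither. The authors' deposited table gives the same probes as 2.179-fold up and 2.367-fold down. Of 3180 genes with several probes on both arrays, Rora was the 1 gene with a probe past 2-fold in each direction. The gap of 2.37 between its probes was larger than that of 99.9% of those genes, whose probes had an SD of 0.25. Each probe was a single spot per array. The levels at position 355 fell in the dimmest group of spots, with an SD of 0.24. The lowest level called above background was 0.143 in N2ICD and 0.150 in control. Over the scalings tried, including the spike-in scale, the upper value ran from 1.08 to 1.59 and stayed past 2-fold. The lower value was -0.58 after normexp background correction and -0.78 on the spike-in scale, short of 2-fold, and between -1.27 and -1.18 otherwise. RefSeq lists 5 other gene models inside or across the span of Rora. The files list different transcripts for these probes, and which transcript the probe at position 355 reads was not tested.

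Nr1d2, the repressor Rev-erb beta, was higher on both of its probes. They read 13.6 and 6.46 in N2ICD muscle, against 10.1 and 5.51 in control muscle, differences of 0.42 and 0.23 and a gene mean of 0.33. Nr1d1, the repressor Rev-erb alpha, read 3.12 in N2ICD muscle and 3.79 in control muscle, a difference of -0.28 that was 0.20 on the spike-in scale. The Rev-erb receptors thus had opposite signs on the percentile scale, each by less than 1.5-fold. RefSeq places Nr1d1 across the end of Thra, on the other strand.

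**Figure D3:**
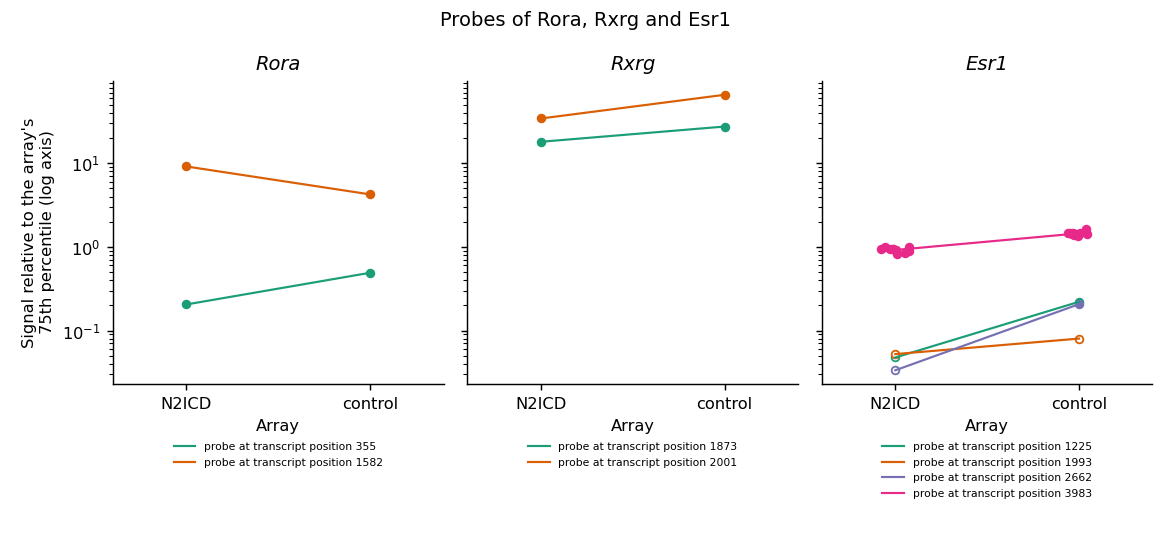
Signal relative to the array's 75th percentile (log axis) of every probe of Rora, Rxrg and Esr1, N2ICD left and control right; points are spots, lines join the means of a probe, and open points are spots not well above background. The Rora lines cross in direction (9.15 against 4.24 and 0.205 against 0.490), while both Rxrg lines are lower in N2ICD. For Esr1 the line well above background on both arrays is lower in N2ICD, and the other Esr1 lines hold open points.

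Of 13 listed clock genes, some of which Rev-erb and ROR receptors act on, 10 were measured, and 0 were 2-fold higher or lower. Their median was -0.32, with 4 above 0 and 6 below. Which of these genes the receptors act on directly was not tested. Arntl, the activating clock factor Bmal1, stood at 2.09 in N2ICD and 1.10 in control, a difference of 0.93. Below 0 were the repressor Bhlhe41 at -0.79, the period gene Per3 at -0.69 and Hlf, a clock output factor of the PAR bZIP family, at -0.42. Per3 lay near background, at 0.196 in N2ICD and 0.318 in control. On the spike-in scale the median of this list was 0.16, and 1 gene was 2-fold higher. Among all genes 1.42% were 2-fold higher and 0.895% 2-fold lower on the percentile scale, and these shares are the background of the 2-fold counts of every gene list.

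NR4A receptors are encoded by immediate early genes and have no settled natural ligand. They are induced in muscle by exercise and adrenergic signals. Their promoters are shown because all 3 genes share a core element. Capitals mark TGACG on either strand (CGTCA on the strand shown), the core of the cyclic AMP response element, in the 250 bases before the RefSeq start on GRCm38.p6. The windows are chr15:101266596-101266845 (plus strand) for Nr4a1, chr2:57124004-57124253 (minus strand) for Nr4a2 and chr4:48045055-48045304 (plus strand) for Nr4a3. Each holds 4 matches, where 17.7% of all 32817 promoter windows hold 1 or more. The share of windows that hold 4 was not counted.
Nr4a1: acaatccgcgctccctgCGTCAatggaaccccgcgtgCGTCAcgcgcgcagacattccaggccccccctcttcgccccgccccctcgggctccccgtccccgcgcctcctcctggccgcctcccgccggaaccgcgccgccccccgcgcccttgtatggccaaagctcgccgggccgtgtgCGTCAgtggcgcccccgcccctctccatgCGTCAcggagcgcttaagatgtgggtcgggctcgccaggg
Nr4a2: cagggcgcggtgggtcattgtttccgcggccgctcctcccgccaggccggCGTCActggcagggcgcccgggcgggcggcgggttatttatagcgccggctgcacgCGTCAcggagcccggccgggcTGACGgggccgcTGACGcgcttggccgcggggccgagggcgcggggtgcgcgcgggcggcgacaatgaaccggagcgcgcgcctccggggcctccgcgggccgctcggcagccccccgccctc
Nr4a3: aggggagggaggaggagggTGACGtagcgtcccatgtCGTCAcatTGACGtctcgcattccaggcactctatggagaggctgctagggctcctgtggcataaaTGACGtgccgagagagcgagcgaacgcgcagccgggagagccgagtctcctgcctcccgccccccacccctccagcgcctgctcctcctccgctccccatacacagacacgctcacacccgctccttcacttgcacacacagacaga

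Nr4a1 (Nur77) read 178 in N2ICD muscle and 213 in control muscle, a difference of -0.26 that was 0.22 on the spike-in scale. Nr4a2 (Nurr1) read 0.322 in N2ICD muscle and 0.221 in control muscle, 1.46-fold higher, from 1 of its 2 probes. That difference of 0.55 lay near the background of the arrays, where the spot noise had an SD of 0.24, and was 0.11 after normexp correction. Nr4a3 (Nor1) was below the detection call on both arrays in all of the spots used. These values do not show that the 3 genes differ from each other, and the part of the shared core element was not tested.

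Of 10 listed genes of glycogen, glucose and fuel use linked to NR4A receptors in muscle, 10 were measured, 1 lay above 0 and 9 below, with a median of -0.40. At 2-fold, 0 were higher and 2 lower, where 50.7% of all genes lay above 0 and 0.895% were 2-fold lower. Prkag3, the muscle regulatory subunit of AMP-activated kinase, stood at 2.79 in N2ICD and 6.67 in control, a difference of -1.25. Gpt2, a mitochondrial alanine aminotransferase, stood at 22.2 in N2ICD and 46.8 in control, a difference of -1.08. Fbp2, the muscle fructose bisphosphatase, differed by -0.98 and Phka1, a regulatory subunit of phosphorylase kinase, by -0.69. The median of this list was 0.08 on the spike-in scale, where 6 of its genes lay above 0 and 0 were 2-fold lower.

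Rxrg, the retinoid X receptor typical of skeletal muscle, was lower on both of its probes, which lie next to each other (mm9, chr1:169569496-169569555 and chr1:169569624-169569683, plus strand). The first read 18.05 in N2ICD muscle and 27.4 in control muscle, a difference of -0.60. The second read 34.3 in N2ICD muscle and 65.8 in control muscle, a difference of -0.94. The gene mean was -0.77, 1.71-fold lower, where spots of that level had an SD of 0.05. It ran from -0.84 to -0.70 over 5 other scalings and was -0.29 on the spike-in scale, so its sign held in each while its size did not. Rxra, the widely expressed form, differed by 0.26, with probes at 0.10 and 0.43. Rxrb read 38.3 in N2ICD muscle and 40.5 in control muscle, a difference of -0.08.

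The retinoic acid receptors, which dimerise with these partners, stayed within 1.5-fold. Rara differed by 0.15, with probes at 0.12 and 0.18. Rarb differed by -0.28, and its measured probes disagreed: one read 0.338 in N2ICD muscle and 0.510 in control muscle (-0.60), and another 3.23 in N2ICD muscle and 3.15 in control muscle (0.04). Rarg read 4.27 in N2ICD muscle and 4.99 in control muscle, a difference of -0.23. The signs of Rarb and Rarg turned on the spike-in scale.

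Of 15 listed genes of retinoid handling and response, 10 were measured, 5 above 0 and 5 below, with a median of 0.01. One was at least 2-fold higher and 0 were 2-fold lower. Cyp26b1, which breaks down retinoic acid, stood at 12.99 in N2ICD and 3.93 in control, 3.31-fold higher. Crabp2, a carrier that brings retinoic acid to its receptors, differed by -0.44. Of the enzymes that make retinoic acid, Aldh1a2 differed by -0.43. Aldh1a3 differed by 0.42, near background at 0.298 in N2ICD and 0.222 in control. Aldh1a1 stood at 54.4 in N2ICD and 55.2 in control, a difference of -0.02.

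Among the thyroid hormone receptors, Thrb was higher on both probes, which read 1.60 and 0.580 in N2ICD muscle, against 1.22 and 0.487 in control muscle. The differences were 0.39 and 0.25, with a gene mean of 0.32. Thra differed by -0.02, with probes at -0.08 and 0.04, no larger than the SD of spots at those levels. Of 15 listed genes of thyroid hormone handling and response, 13 were measured, 8 above 0 and 5 below, with a median of 0.08. One was at least 2-fold higher and 0 were 2-fold lower. That was Myh7, the slow myosin heavy chain, a gene that thyroid hormone lowers, at 4.23 in N2ICD and 0.912 in control, a difference of 2.21. Dio2, the enzyme that makes active thyroid hormone in tissue, differed by -0.75, near background at 0.200 in N2ICD and 0.338 in control. The hormone-induced factor Klf9 differed by 0.33 and the slow calcium pump Atp2a2 by 0.30.

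The fatty acid receptors lay within 1.5-fold. Ppara, which drives fatty acid oxidation, differed by 0.12, with probes at -0.04, 0.11 and 0.30. Ppard, the main form in muscle, read 9.29 in N2ICD muscle and 8.23 in control muscle, a difference of 0.17. Pparg, the adipocyte regulator, was printed in 10 spots, which ran from 1.39 to 1.61 on the N2ICD array and from 1.60 to 1.91 on the control array. Its difference was -0.28 with an SD over spots of 0.09, and 0.20 on the spike-in scale. Of 8 adipocyte markers, 7 were measured and Lep was not. Their median was 0.05 and their summed level 498 in N2ICD and 289 in control, of which Car3, which muscle fibres also make, supplied 443 in N2ICD and 242 in control. Without Car3, a choice made after the values were seen, the sums were 55.0 in N2ICD and 47.0 in control. A sum weighs each gene by the brightness of its probes. In bulk tissue, fewer cells of a type and less RNA per cell cannot be told apart, and the part of adipocytes in the Pparg value was not tested.

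Of 23 listed targets of these receptors, 22 were measured, 10 above 0 and 12 below, with a median of -0.01. One was at least 2-fold higher, Lpl, the lipase that frees fatty acids from lipoproteins, at 11.7 in N2ICD and 5.67 in control, and 0 were 2-fold lower. Slc25a20, the carnitine carrier of mitochondria, differed by -0.71, the fatty acid binding protein Fabp3 by -0.67 and the lipid droplet protein Plin5 by -0.37.

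The sterol and xenobiotic receptors lay close to 0. Nr1h2 (LXR beta) read 27.3 in N2ICD muscle and 25.1 in control muscle, a difference of 0.12. Nr1h3 (LXR alpha) differed by -0.04, with probes at -0.07 and -0.01. Nr1i3, a xenobiotic sensor of liver, read 0.330 in N2ICD muscle and 0.307 in control muscle, a difference of 0.10 from 1 of its 2 probes. Of 14 listed genes of the sterol response, 12 were measured, with 2 above 0, 10 below, a median of -0.11 and 0 at 2-fold either way. Nr1h3 itself is on this list, among the 10 below 0. The phospholipid carrier Pltp differed by -0.49, the lipogenic factor Srebf1 by -0.39 and the sterol exporter Abcg1 by -0.32. This list's median was 0.37 on the spike-in scale, where 1 gene was 2-fold higher.

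Esr1, the oestrogen receptor alpha, was lower on the 1 of its 4 probes that was well above background on both arrays. That probe lies at position 3983 (mm9, chr10:5343056-5343115, minus strand). It was printed in 10 spots. These ran from 0.824 to 0.993 on the N2ICD array and from 1.36 to 1.65 on the control array. The difference was -0.66 with an SD over spots of 0.14, 1.58-fold lower, and the spots are repeats on 1 array per genotype. Over 5 other scalings it ran from -0.67 to -0.49, and it was -0.18 on the spike-in scale. The probe at position 1225, whose sequence is given above, read 0.0476 in N2ICD muscle, not well above background, and 0.221 in control muscle, at least 1.55-fold lower. A bound of this kind sets the brighter level against the higher of the dim level itself and the lowest level called above background on the dim array. It is not a strict limit, since a level just above that lowest one can also fail the call, as Vdr did at 0.160 in control. A probe that passed the call on 1 array alone was selected through its brighter side, so its direction is not a separate reading. A probe for the transcript AK054182 read 0.0335 in N2ICD muscle and 0.207 in control muscle, at least 1.45-fold lower. On the spike-in scale these bounds shrank to 0.15 and 0.06 on the log2 scale. The fourth probe passed the background call in neither muscle.

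The other steroid receptors measured also lay below 0 on the percentile scale and above 0 on the spike-in scale. Nr3c1, the glucocorticoid receptor, differed by -0.26, with probes at -0.43 and -0.08. Esr2, the oestrogen receptor beta, read 8.51 in N2ICD muscle and 9.30 in control muscle, a difference of -0.13. Of 22 listed glucocorticoid-responsive genes, 21 were measured, 14 above 0 and 7 below, with a median of 0.09. At least 2-fold higher were 2, the metal-binding proteins Mt2 (65.7 in N2ICD and 18.1 in control) and Mt1 (159 in N2ICD and 71.9 in control), and 0 were 2-fold lower. The count of 2-fold higher genes was 3 on the spike-in scale. The transcription factor Cebpd differed by 0.69 and Errfi1, an inhibitor of growth factor receptors, by 0.52. Of 9 listed enzymes that make or remove steroids, 5 were measured, with a median of -0.09 and 0 at 2-fold. Hsd11b1, which regenerates active glucocorticoid, differed by -0.40, the steroid sulphatase Sts by 0.31, the ketosteroid reductase Hsd17b12 by -0.26 and H6pd, which supplies the cofactor of Hsd11b1, by -0.09.

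Among the receptors without a settled natural ligand, Nr2f2 (COUP-TF II), a regulator of vein identity and of many mesenchymal cells, read 2.03 in N2ICD muscle and 2.37 in control muscle, a difference of -0.23. Nr2f1 (COUP-TF I), best known from the developing nervous system, differed by 0.05 on 1 probe, which read 0.542 in N2ICD muscle and 0.522 in control muscle. A second Nr2f1 probe passed the background call in N2ICD and not in control, at 0.168 in N2ICD and 0.0337 in control, at least 1.12-fold higher. Nr2f6, a repressor of cytokine genes in T cells, differed by -0.01. The testicular receptors Nr2c1 and Nr2c2, which are widely expressed repressors, differed by -0.11 and 0.26. Nr5a1, the regulator of steroid-making glands, read 0.521 in N2ICD muscle and 0.662 in control muscle, a difference of -0.35 that was 0.13 on the spike-in scale. Nr5a1 has 1 probe, and its levels fell in the dimmest group of spots, with an SD of 0.24. Its relative Nr5a2 read 0.0315 in N2ICD muscle, not well above background, and 0.169 in control muscle, at least 1.18-fold lower, a bound that was lost on the spike-in scale. The bounds of Nr2f1 and Nr5a2, 0.16 and 0.24 on the log2 scale, did not stand clear of the SD of 0.24 of the dimmest spots. Both probes were selected through their brighter array, so their direction is not a separate reading.

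The coregulators that receptors recruit were measured nearly in full. Of 17 coactivators, 17 were measured, 6 above 0 and 11 below, with a median of -0.08. Prmt1, an arginine methyltransferase that marks histones at receptor targets, was the 1 gene at least 2-fold lower, at 14.4 in N2ICD and 33.7 in control, with probes at -1.26 and -1.19. Ppargc1a (PGC-1 alpha), the coactivator of mitochondrial genes, stood at 2.55 in N2ICD and 1.67 in control, a difference of 0.62. On the spike-in scale 16 of the 17 coactivators lay above 0, 0 were 2-fold lower, so that Prmt1 fell short, and 1 was 2-fold higher, Ppargc1a. The methyltransferase Carm1 differed by 0.32 and the acetyltransferase Kat2b by 0.21. Of 13 corepressors, 12 were measured, 8 above 0 and 4 below, with a median of 0.09 and 0 at 2-fold. Nrip1 (RIP140), a repressor of oxidative genes, differed by 0.52, the corepressor subunit Tbl1x by -0.35 and the scaffold Sin3a by -0.22.

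**Figure D4:**
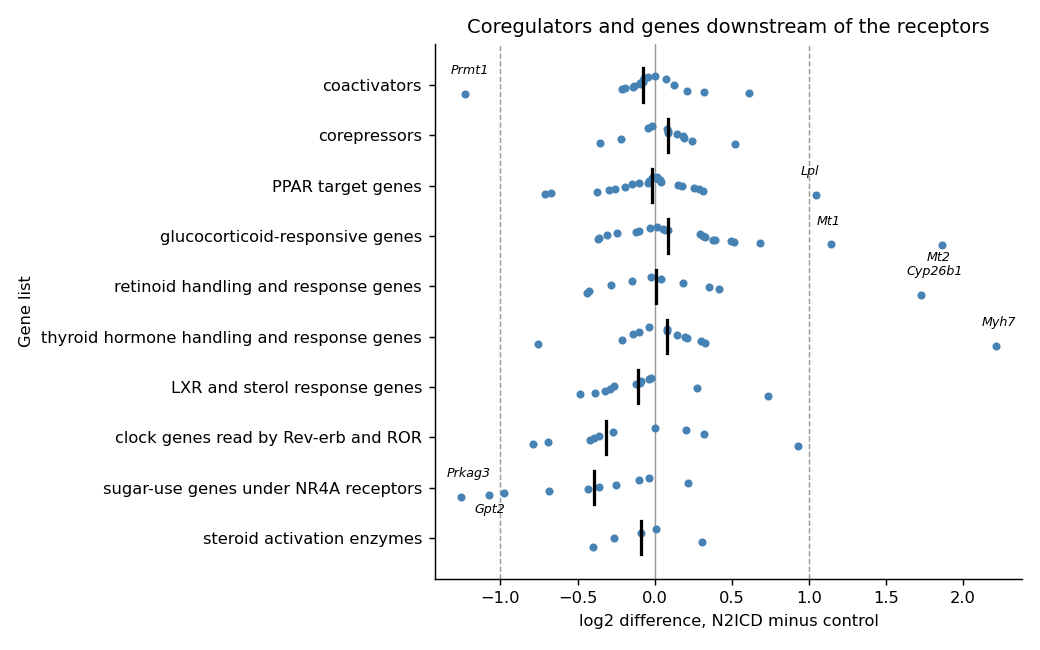
Log2 difference, N2ICD minus control, of each measured gene of the lists of coregulators and receptor-related genes (points, raised slightly by rank so that they separate); black bars are medians and dashed lines mark 2-fold. List medians run from -0.40 to 0.09. The lowest is that of the genes of glycogen, glucose and fuel use linked to NR4A receptors, labelled sugar-use genes in the figure. The named points are those at least 2-fold higher or lower.

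The promoters hold further matches, counted over 39 receptors with a RefSeq promoter and 26994 genes in all, on both strands in the same window. The receptor core AGGTCA was found in 10 receptors, Rxrg among them, and in 15.8% of all genes. The clock element CACGTG was found in 5 receptors, Thrb among them, and in 6.86% of all genes. TGACG was found in 12 receptors and in 19.8% of all genes. GTGGGAA, a core bound by the Notch effector RBPJ and searched after values had been seen, was found in 2 receptors, Pparg and Rara, and in 6.18% of all genes. The serum response element core, the CArG box, was found in 1 receptor, Nr2f6, and in 1.63% of all genes. None of these letters was found before the starts of Rora and Esr1.

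Markers of other cells of the tissue were read beside these values. Endothelial markers had a median of -0.20 over 10 of 10 measured, with a range of -0.59 to 0.26 and a summed level of 56.2 in N2ICD and 64.1 in control. Fibroblast markers had a median of -0.09 over 8 of 8, a range of -0.41 to 0.21 and a summed level of 483 in N2ICD and 596 in control. For leukocytes and macrophages, 6 of 8 markers had a median of -0.43, a range of -0.70 to 0.40 and a summed level of 8.76 in N2ICD and 12.7 in control, with Adgre1 and Ptprc not measured. On the spike-in scale these medians were 0.28 for the endothelial, 0.39 for the fibroblast and 0.05 for the leukocyte list, since all differences shift alike. The part of these cells in the receptor values was not tested. Smooth muscle markers had a median of 0.14 over 6 of 6, a range of -0.22 to 0.75 and a summed level of 70.7 in N2ICD and 66.9 in control. Without Smtn, the brightest of them in N2ICD, the sum was 43.1 in N2ICD and 45.2 in control. Leaving out the brightest gene in the same way changed the direction of the sum for no other cell type list. Schwann cell and nerve markers had a median of 0.15 over 6 of 6, a range of -0.32 to 0.86 and a summed level of 9.46 in N2ICD and 8.67 in control. Fibre markers had a median of -0.14, a range of -0.52 to 1.30 and a summed level of 13244 in N2ICD and 14006 in control.

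**Figure D5:**
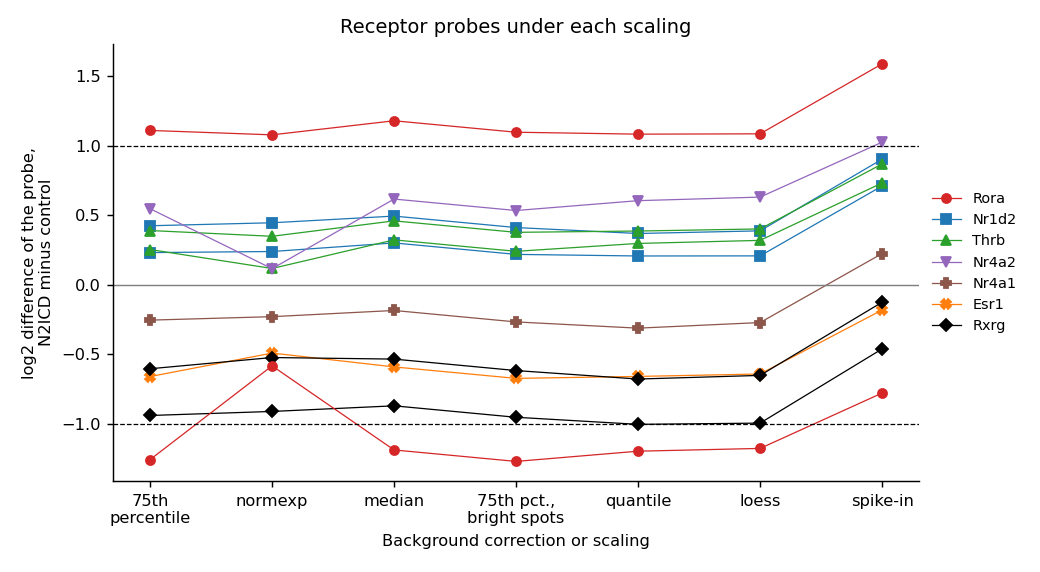
Log2 difference, N2ICD minus control, of 11 receptor probes under each background correction or scaling; dashed lines mark 2-fold. The spike-in scale lifts every probe by 0.48 and turns the sign of Nr4a1, the Rora probes stay on opposite sides of 0 throughout, and both Rxrg probes stay below 0.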

How the data were processed

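Total RNA of 1 N2ICD and 1 control sample of tibialis anterior muscle was labelled with Cy3 and hybridised to 1 array each, per the labels' protocols, and the labels gave the groups. The deposited scanner files hold spot intensity, background-subtracted by Agilent Feature Extraction 10.10.1.1 and not normalized between arrays, per the file headers. The build of the coordinates is mm9, again per the file headers. A table deposited by the authors gives an unsigned fold with a direction and a log2 value per array. The sources used here do not give how that table came about. Probes are 60 bases long.

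Levels are log2 intensity minus the 75th percentile of the array, taken over spots other than controls. Spots that the scanner software marked as uneven or outlying (215, on either array) were dropped, 3 of them on receptor probes. Spots of a probe were averaged, and a probe counted as well above background when more than 1 in 2 of its spots were. A gene's value is the mean over probes well above background on both arrays. Names are those in the files, and matching accessions to RefSeq renamed 0 receptor probes. Promoters are RefSeq's, on GRCm38.p6. The spot noise came from 236 probes with at least 5 spots. Counts of receptors at 2-fold and 1.5-fold stand beside the share of all measured genes, with no test. Every receptor well above background is named, and up to 4 genes per list with the largest absolute difference. Aldh1a1 is named outside this rule. Some genes that met this rule are not reported here. The receptors and lists were chosen with earlier results of these data known, and some genes, such as Ucp3, stand on more than 1 list. Flanked forms of AGGTCA were not searched. The steps were tested on simulated data. Alternatives were normexp (offset 50), median, bright-spot percentile, quantile, loess and spike-in scaling (7 probes), other filters on dim probes, the brightest probe, names through accessions, the deposited folds and 1.5-fold. The work used R 4.3.3 with limma 3.58.1, and Python 3.11.15 with matplotlib 3.10.9, pandas 2.3.3 and numpy 2.4.6.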

Additional observations from a re-analysis of the deposited data

How the results depend on the processing

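The counts of receptors past 2-fold, 0 upwards and 0 downwards in N2ICD, held under normexp, median, bright-spot percentile, quantile and loess scaling, names through accessions and the deposited folds. On the spike-in scale 1 receptor was 2-fold higher (Nr4a2) and the median difference was 0.42, since all differences shift. With probes well above background on at least 1 array, 1 was higher (Nr2f1) and 2 were lower (Esr1 and Nr5a2), and with no filter 2 were higher and 3 lower, all counts that include signals not above background. With the brightest probe of each gene 1 was higher, Rora. At 1.5-fold, 0 were higher and 2 lower, but 9 and 0 on the spike-in scale, 0 and 1 after normexp, and 1 and 2 under median, quantile and loess scaling and with the brightest probe. The sign held under the 5 other scalings apart from spike-in for 23 of 28 receptors, the exceptions being Rora, Thra, Nr1h3, Nr1i3 and Nr2f6. It turned on the spike-in scale for 15. Among all genes, 194 were 2-fold higher and 122 lower, 61.4% higher, against 893 and 25, 97.3% higher, on the spike-in scale, 81 and 43 after normexp, 364 and 328 with probes above background on at least 1 array and 829 and 965 with no filter. The number of arrays and, near background, the signal limit the precision. No paired analysis was possible because each genotype has 1 sample.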
